A study of Mus musculus with 112 samples.

Results

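The voltage-gated calcium channel genes and the genes of the intracellular calcium release channels were followed through sperm and brain methylomes. They were chosen by name: 9 alpha1 subunit genes (Cacna1a to Cacna1e, Cacna1g to Cacna1i, and Cacna1s), 4 alpha2delta genes (Cacna2d1 to Cacna2d4), 4 beta genes (Cacnb1 to Cacnb4), 8 gamma genes (Cacng1 to Cacng8), 3 ryanodine receptor genes (Ryr1 to Ryr3) and 3 IP3 receptor genes (Itpr1 to Itpr3). They make 31 of the 55413 genes annotated on the mouse chromosomes. The list sets no threshold on methylation. For each gene, all measured CpG positions from 2000 bp before its start to its end were taken (mm10), and those within 1000 bp of the start were counted as promoter and those further downstream as gene body. The 31 genes held 3297 of 1023708 usable cytosines (0.322%) in sperm of exposed and unexposed males (F0). They held 1629 of 517958 in sperm of sons of such males (F1) and 4973 of 1390836 in brain of sons.

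Voltage-gated calcium channels open when a membrane depolarises and let calcium into the cell. The alpha1 subunit forms the pore and sets the channel type, the beta and alpha2delta subunits bring the channel to the membrane and tune its gating, and the gamma family holds both a muscle channel subunit and partners of glutamate receptors. Ryanodine and IP3 receptors release calcium from internal stores. In neurons these channels couple electrical activity to transmitter release, dendritic signalling and gene transcription, and several of the genes are linked to epilepsy, ataxia and psychiatric disorders. DNA methylation in mammals sits mainly on cytosines of CpG pairs, the only positions followed here. CpG-dense promoters are usually free of it and gene bodies usually carry it.

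Methylation was measured by reduced representation bisulfite sequencing, which reads a CpG-rich fraction of the genome after restriction digestion, in 112 libraries. The F0 sperm groups were control C57BL/6J males of the wild type (WT; n = 10), WT males taken at the end of a cigarette smoke exposure (n = 9), WT males taken at 3 successive times after smoke was withdrawn (recovery 1, 2 and 3; n = 9, 10 and 10), and Nrf2-/- males without (n = 10) or with smoke (n = 9). Nrf2-/- males lack the transcription factor that induces antioxidant genes (encoded by Nfe2l2) in every cell. F1 sperm came from adult sons of control WT sires (n = 6) and smoked WT sires (n = 7), and F1 brain (prefrontal cortex in the study's methods) from adult sons of control and smoked WT sires and of control and smoked Nrf2-/- sires (n = 8 in each group). All dams were unexposed CAST/EiJ females, so every son was a C57BL/6J by CAST/EiJ hybrid, sons of Nrf2-/- sires carried 1 targeted Nfe2l2 allele, and a CpG that differs between the strains can read as partly methylated in every son. For 1 of the 32 brain samples, titled as a son of a control WT sire and assigned to that group's table, the strain label reads NRF-/- instead, and it was kept in the group of its title. Recovery males were older than the controls, which were taken when the exposure ended, so recovery and age cannot be told apart.

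Each library gave a percent for 510212 to 1855546 CpG positions. Read numbers behind a percent were not in the files, so depth is unknown. Libraries from Nrf2-/- males carried the facility numbers 1 to 20 and those from WT males 21 to 70, and in brain the sons of Nrf2-/- sires carried 1 to 16 and the sons of WT sires 17 to 32, so genotype and order in the facility cannot be told apart. As a check of the tissue labels, the mean over promoters of germline genes was 1.32 to 4.44% in F0 sperm libraries, 2.88 to 8.84% in F1 sperm and 60.1 to 78.8% in brain. Promoters of maternally methylated imprinted genes averaged 0 to 6.11% in F0 sperm, 0 to 8.37% in F1 sperm and 5.08 to 30.2% in brain. The paternally methylated region 2 to 4 kb before H19 was at 44.4 to 100% in F0 sperm libraries. It was at 66.7 to 100% in F1 sperm and 21.1 to 57.1% in brain. At both imprinted markers the ranges of F0 sperm and brain overlapped.

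The sequences of 8 short regions that the results turn on are given here from the mm10 (GRCm38) assembly, plus strand, 5′ to 3′, with every CpG in capitals. The first pair are introns that read differently in Nrf2-/- and WT sperm. Cacnb4 passed the test in smoked Nrf2-/- males alone, and in Cacng1 a base change cannot be told apart from methylation:
Cacng1 intron, chr11:107704519-107704615: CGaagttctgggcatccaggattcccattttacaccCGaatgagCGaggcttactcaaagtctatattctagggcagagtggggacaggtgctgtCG
Cacnb4 intron, chr2:52509939-52510032: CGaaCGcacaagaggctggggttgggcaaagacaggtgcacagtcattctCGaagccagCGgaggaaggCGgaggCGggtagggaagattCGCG

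The next pair lie within 1000 bp of a gene start and were methylated in brain but not in sperm:
Cacnb3 noncoding exon, chr15:98630940-98631012: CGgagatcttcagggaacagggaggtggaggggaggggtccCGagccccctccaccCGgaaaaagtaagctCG
Cacng6 coding exon, chr7:3424704-3424760: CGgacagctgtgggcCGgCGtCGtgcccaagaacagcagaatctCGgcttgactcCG

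The last 4 are intronic regions with the largest differences between brain and sperm of sons, and the first 3 were higher in brain:
Cacna1i intron, chr15:80369809-80369899: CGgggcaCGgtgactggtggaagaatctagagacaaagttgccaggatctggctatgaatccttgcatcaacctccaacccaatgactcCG
Ryr2 intron, chr13:11682805-11682884: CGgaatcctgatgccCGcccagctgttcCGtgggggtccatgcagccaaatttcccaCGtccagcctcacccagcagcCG
Cacna1d intron, chr14:30430938-30430998: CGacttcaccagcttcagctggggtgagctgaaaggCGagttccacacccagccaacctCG
Cacng4 intron, chr11:107767222-107767302: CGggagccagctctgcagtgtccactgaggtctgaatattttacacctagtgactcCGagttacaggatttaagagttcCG

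In sperm of control WT males, the calcium channel promoters were unmethylated and their gene bodies spanned almost the whole scale. All 22 member promoters with a value lay between 0.34% and 2.52%, with a median of 0.93%, which is also the median of all 19309 promoters, of which 85.1% were under 10%. The 30 member gene bodies had a median of 67.2%, against 74.6% over 17642 gene bodies. The lowest was Cacng8, a glutamate receptor partner, at 2.20% and the highest was Cacng5, of the same family, at 95.4%. A gene body value is the mean over the cytosines that the method samples, and in a long gene these are few, so genes are not sampled alike.

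Among the pore-forming alpha1 genes, gene body methylation in control WT sperm was highest in Cacna1h, a T-type channel, at 95.1% and lowest in Cacna1a, the P/Q-type channel of presynaptic terminals, at 22.7%. The alpha2delta genes ran from 58.1% in Cacna2d2 to 90.1% in Cacna2d3, and the beta genes from 11.4% in Cacnb3 to 68.7% in Cacnb4. Of the release channels, Ryr1 of skeletal muscle was at 30.02% and Ryr3 at 93.0%, while the IP3 receptor genes lay close together, from 79.6% in Itpr2 to 91.7% in Itpr1. Promoters differed little within families. They were highest in Cacna1i (1.67%), Cacna2d1 (1.16%), Cacnb2 (2.52%), Cacng3 (1.97%), Ryr3 (1.23%) and Itpr2 (0.75%), and lowest in Cacna1b (0.42%), Cacna2d3 (0.38%), Cacnb3 (1.01%), Cacng4 (0.67%), Ryr1 (0.34%) and Itpr3 (0.57%).

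**Figure D1:**
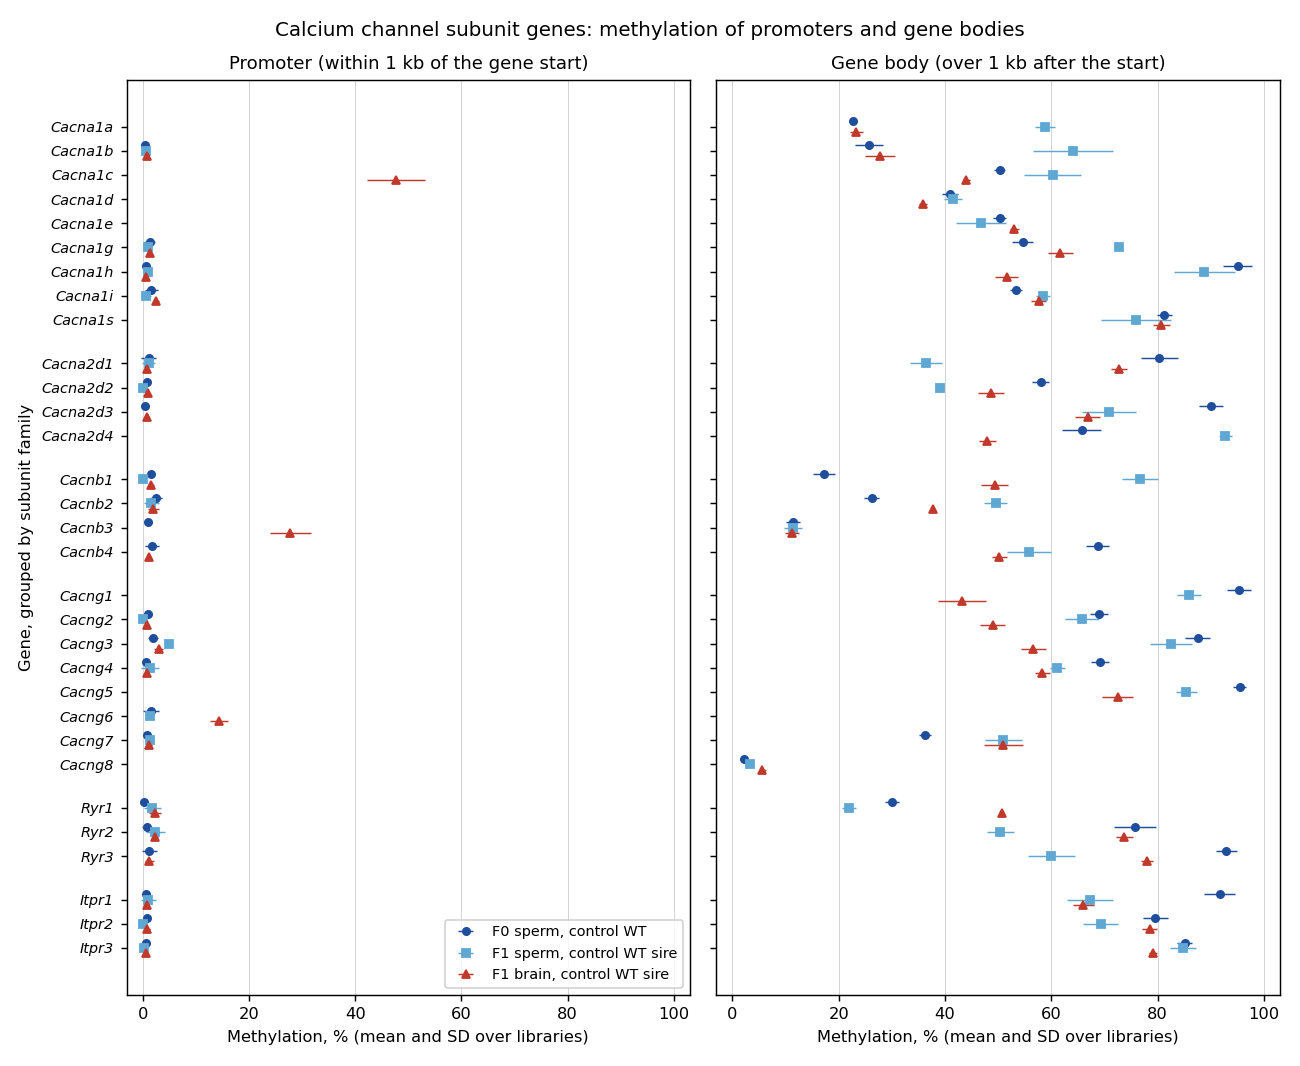
Mean methylation in percent (points) and SD over libraries (bars) of the promoter and gene body of each gene, in control WT F0 sperm and in F1 sperm and F1 brain of sons of control WT sires; a missing point had too few cytosines, and the 3 tables do not hold the same cytosines. Every sperm promoter point lies below 10%, and 3 brain promoters (Cacna1c, Cacnb3 and Cacng6) lie above it.

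In brain of sons of control WT sires the promoters were again low, with a median of 1.28% over 23 genes, and gene bodies had a median of 51.3% over 30 genes against 70.7% over all 19469. The order of gene bodies within families was partly another one than in control WT sperm. These sperm and brain means do not rest on the same cytosines, so the changed order does not show a tissue difference. On the 41 Cacna1a body cytosines shared with sperm of sons, the same brain group was at 59.0%. That was above Cacna1d, at 44.2% on its own shared cytosines. Over all usable brain cytosines, Cacna1s, the skeletal muscle pore, was the highest alpha1 gene at 80.7% and Cacna1a the lowest at 23.3%. The alpha2delta genes ran from 47.9% (Cacna2d4) to 72.8% (Cacna2d1), the beta genes from 11.3% (Cacnb3) to 50.2% (Cacnb4), the gamma genes from 5.66% (Cacng8) to 72.5% (Cacng5), the ryanodine receptors from 50.7% (Ryr1) to 78.0% (Ryr3) and the IP3 receptors from 66.1% (Itpr1) to 79.1% (Itpr3).

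Of the 23 brain promoters, 3 lay between 10 and 90%: Cacna1c, which encodes the L-type channel of heart and neurons, at 47.8%, Cacnb3 at 27.8% and Cacng6 at 14.4%. The following values are plain means over the cytosines of an interval. For the beta subunit gene Cacnb3 the methylated stretch lay in a noncoding exon, centred 135 bp after the gene start, shown above. It was at 55.6% ± 6.52 (SD, n = 8) in brain of sons of control WT sires, from 48.0 to 68.1%, and at 1.46% ± 1.06 (n = 9) in control WT sperm, from 0 to 3.33%. In F1 sperm only 2 of its cytosines were read and gave 2.48% ± 2.02 (n = 5). Every brain library of that group was thus far above every sperm library. A second Cacnb3 stretch (chr15:98631269-98631401) stood at 13.5% ± 4.19 (n = 8) in brain and at 0.36% ± 0.77 (n = 9) in F0 sperm.

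The coding region of Cacng6 shown above, centred 537 bp after the start, was at 66.8% ± 10.2 (n = 7) in brain, from 48.4 to 78.6%, and at 3.45% ± 4.17 (n = 7) in F0 sperm, from 0 to 12%. The neighbouring part of the same promoter was unmethylated in brain (1.75%). The Cacna1i region before the gene start (chr15:80286744-80286902) was at 14.4% ± 2.95 (n = 8) in brain and 3.49% ± 2.45 (n = 10) in F0 sperm. The Cacna1c promoter rested on 3 cytosines, too few of them usable in sperm for it to count among the sperm promoters above, and differed the other way, with 45.8% ± 4.71 (n = 8) in brain and 96.7% ± 2.78 (n = 8) in F0 sperm. These pairs come from different generations and separate tables and were not tested. The sire groups overlapped for each of them. In the Cacnb3 exon sons of smoked WT sires averaged 58.4%, and sons of Nrf2-/- sires 60.0% (control) and 53.9% (smoked). In the Cacng6 region these means were 69.4%, 70.6% and 57.5%.

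Brain and sperm of sons of control WT sires were compared on the 1471 member cytosines read in both. This comparison sets the 2 tissues side by side within hybrids of 1 kind, for these cytosines alone. Facility numbers ran from 2 to 14 in these sperm libraries and from 19 to 32 in these brain libraries. Tissue and order in the facility can thus not be told apart. Of 53 member compartments (a promoter, gene body or the stretch 1000 to 2000 bp before a start), 12 were higher in brain and 17 lower at a Benjamini-Hochberg adjusted p below 0.05 (limma). Over all genes 52% of compartments passed, 35.1% higher and 16.9% lower. Of the 30 gene bodies, 8 rose and 15 fell, with a median difference of -5.61 percentage points, beside +1.597 over all 14233 gene bodies, of which 39.8% were higher and 27.4% lower. Of the 19 promoters, 3 rose and 1 fell, where 29.8% of all promoters were higher and 5.83% lower. In shorter regions (cytosines joined when within 100 bp), 27 of 104 were higher and 36 lower in brain, while 56.6% of all regions passed, 30.8% higher and 25.7% lower. Whether the sperm and brain libraries came from the same sons is not stated.

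Gene bodies lower in brain were led by Cacna1h, which had 50.9 to 62.9% in brain (56.2% ± 4.08, n = 8) and 78.2 to 93.5% in sperm (89.9% ± 5.85, n = 6), a difference of -33.8 points (adjusted p 1.43e-08). Cacna2d4, an auxiliary subunit known from the retina, followed at 62.4% ± 4.70 (n = 8) against 92.8% ± 1.26 (n = 4). Cacng1, the gamma subunit of skeletal muscle, was at 58.4% ± 5.62 (n = 8) against 87.7% ± 3.90 (n = 5), and the beta gene Cacnb1 at 50.4% ± 3.91 (n = 8) against 76.7% ± 3.40 (n = 4). Brain and sperm values did not overlap in any of these 4 genes. Their body means rested on few shared cytosines (6 in Cacna1h, 11 in Cacna2d4, 6 in Cacng1 and 5 in Cacnb1). Under the alternatives the difference ran from -44.0 to -30.5 points in Cacna1h and from -27.6 to -11.1 in Cacnb1. Cacna1b, the N-type channel of nerve terminals, fell by 18.3 points, Cacng4 fell by 17.8 and Cacng3 fell by 14.95 (adjusted p 5.99e-04, 9.48e-09 and 2.35e-04). Cacna1b rested on 8 shared cytosines, Cacng4 on 22 and Cacng3 on 18, and the Cacng4 difference ran from -18.4 to -11.3 points under the alternatives. In Cacna1b 1 brain library at 63.8% lay within the range of sperm (56.5 to 67.1%), while the other brain libraries reached at most 47.3%.

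Gene bodies higher in brain included Cacna2d2, a presynaptic alpha2delta subunit, with 53.9 to 63.8% in brain and 30.5 to 49.8% in sperm (59.8% ± 3.10, n = 8, against 44.3% ± 7.46, n = 6; adjusted p 2.02e-04). Cacna1e, the R-type channel, had 66.4 to 69.1% in brain and 44.2 to 59.0% in sperm, a difference of +14.5 points (adjusted p 1.39e-05). Again the ranges did not overlap. Each body mean includes a short stretch that rose far more than the mean itself. In Cacna2d2 an intron stretch of 9 of the 23 cytosines (chr9:107479565-107479725) went from 3.03% in sperm to 52.3% in brain. In Cacna1e an exon stretch of 14 of the 59 cytosines rose by 69.6 points. The remaining cytosines were not tested apart, so a higher body mean does not show that they were higher in brain. Under the alternatives the Cacna2d2 difference ran from 11.6 to 44.0 points. By family, both ryanodine receptor bodies that passed (Ryr1 and Ryr2) were higher in brain, both IP3 receptor bodies that passed (Itpr1 and Itpr3) were lower, and gamma genes were lower in 5 and higher in 2 of 7. These family counts are small and were not tested against the shares of all gene bodies (39.8% higher, 27.4% lower).

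Among promoters, Ryr2, the cardiac ryanodine receptor that is also the main brain form, was higher in brain on 5 shared cytosines, with 14.5 to 23.6% in brain (17.7% ± 2.70, n = 8) and 0.65 to 5.15% in sperm (3.14% ± 1.81, n = 6; adjusted p 3.93e-08). Over all its brain cytosines the same promoter averaged 2.34%, so the difference belongs to a small part of it. The Cacna1i promoter (5.26% against 1.55%) and the Cacng2 promoter (1.79% against 0%) rose by small amounts, and the Cacng3 promoter fell from 4.97% in sperm to 2.33% in brain. On 8 of its 9 shared cytosines (chr7:122670890-122670973) Cacng3 was at 0.37% in sperm and 0.77% in brain, so the fall does not lie there.

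**Figure D2:**
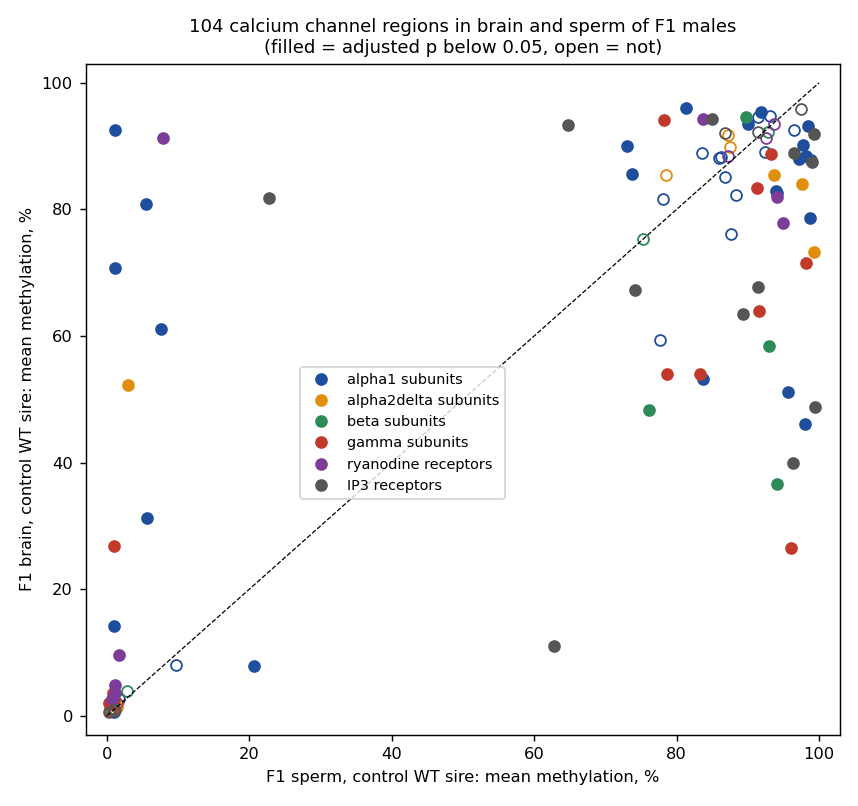
Mean methylation in percent of each shared region in F1 sperm (x axis) and F1 brain (y axis) of sons of control WT sires, coloured by subunit family; filled points passed an adjusted p of 0.05, open points did not, and the dashed line marks equal values. Points in the upper left are regions near 0 in sperm and methylated in brain, such as Cacna1i at 1.20% and 92.5%.

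Several short stretches went from nearly unmethylated to nearly fully methylated. The Cacna1i intron shown above had 0 to 3.57% in sperm (n = 4) and 87.9 to 96.5% in brain (n = 8), a difference of +91.3 points (adjusted p 1.06e-13). The Ryr2 intron had 2.86 to 16.1% (n = 4) and 83.8 to 97.95% (n = 5), +83.4 points (adjusted p 1.22e-08). The Cacna1d intron, in the L-type channel gene of neurons and pacemaker cells, had 0.58 to 17.9% (n = 6) and 74.9 to 89.0% (n = 8), +75.2 points. In all 3 the tissues were far apart and no library lay between them.

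A noncoding exon within Cacna1e (chr1:154799324-154799501, 14 cytosines) rose by 69.6 points, an Itpr2 intron (chr6:146464541-146464617) by 59.0 and a coding exon of Cacna1a (chr8:84569945-84570005) by 53.6. In the other direction, the Cacng4 intron shown above had 90.6 to 100% in sperm (n = 6) and 17.2 to 39.6% in brain (n = 8), a difference of -69.6 points (adjusted p 2.98e-11). Introns of Cacnb4 (chr2:52507382-52507474), Itpr2 (chr6:146439028-146439144) and Cacna1e (chr1:154790868-154790959) fell by 57.5, 56.4 and 52.0 points. Single genes held stretches that moved in opposite directions, as in Itpr2 and Cacna1e.

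The 27 regions higher in brain had median levels of 5.57% in sperm and 80.8% in brain, and 9 of them were coding and 15 intronic. The 36 lower in brain had medians of 94.5% and 72.4%, with 5 coding and 29 intronic. The ratio of observed to expected CpG in the 300 bases around a region had a median of 0.51 in those higher, 0.42 in those lower and 0.53 in the 41 that did not pass.

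Genes that regulate or use the channels' calcium, listed by role, were set beside them. In brain against sperm of sons, 20 of 80 compartments of these genes were higher and 17 lower, where 35.1% of all compartments were higher and 16.9% lower. These shares over all genes are the background for each list that follows, and no list was tested against it. Channel regulators (RGK proteins, junctophilins and others) rose in 11 of 24 and fell in 1, led by the gene body of Rem1, an RGK inhibitor of calcium channels (+61.2 points). Calmodulin, its kinases and calcineurin fell in 8 of 25 and rose in 1. Camk2a, the main kinase of excitatory synapses, fell by 49.2 points, Calm3 by 47.2 and Camk2b by 39.4. Pumps and exchangers rose in 4 of 13 and fell in 6, and store-operated entry genes rose in 1 of 6 (Orai1, the pore, +45.5) and fell in 1 (Stim1, the store sensor, -5.98). Genes of CatSper, the calcium channel of the sperm tail, rose in 3 of 12, among them the promoter of Catsperz (+14.8), and fell in 1.

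Smoke exposure of WT males was tested in F0 sperm to ask whether it alters channel methylation and whether any change persists after withdrawal. No member compartment passed at the end of exposure or at recovery 1, 2 or 3 (0 of 57 in each, limma), where 0%, 0%, 0% and 0.00741% of all 40490 compartments passed. At an unadjusted p below 0.05 there were 1, 2, 3 and 1 member compartments, and 4.13%, 4.77%, 4.01% and 6.04% of all. No member region passed either (0 of 223 in each), where 0.00159%, 0%, 0.00318% and 0.0318% of 62829 regions passed and 2, 12, 11 and 13 member regions had an unadjusted p below 0.05 (3.94%, 5.28%, 4.19% and 6.28% of all). These 4 comparisons share the same control males.

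Across the 30 gene bodies, the difference after exposure had a median of -0.67 points and ran from -1.52 to +0.16, while the median over all 17642 gene bodies was -0.45. One of the smoked WT libraries lay 4.28 points below its group's median over the 30 gene bodies, and its part in that shift was not tested. At recovery 3 the median was +0.27 points (+0.40 over all gene bodies), with a range from -0.83 to +3.22. Promoters moved by at most 1.08 points.

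The smallest p among member compartments belonged in 3 of these comparisons to the promoter of Cacna1g, a T-type channel that drives thalamic rhythms. Its control WT libraries lay between 0.23 and 2.90% (1.32% ± 1.10, n = 9), the smoked WT libraries between 0.17 and 1.44% (0.64% ± 0.43, n = 9), and recovery 1 and 2 averaged 0.74% and 0.62%. All these values are within 3 points of 0 and the groups overlapped (adjusted p 0.996, 1.0 and 1.0). At recovery 3 it was the Cacna1b gene body, at 28.9% ± 3.21 (n = 10) against 25.7% ± 2.61 (n = 10; adjusted p 0.811).

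Of the regions, a Cacnb2 exon had the smallest p at the end of exposure, with 1.59% ± 2.89 (n = 8) against 0.17% ± 0.33 (n = 10; adjusted p 1.0). Without 1 library at 8.67% the smoked males reached at most 1.16%. A Cacnb4 intron (chr2:52631817-52631910) had it at recovery 1 (94.7% against 97.1%, adjusted p 0.844) and a Cacna1h exon at recovery 2 (0.12% against 1.84%, adjusted p 1.0). Without 1 control library at 7.52% the controls of the Cacna1h exon reached at most 1.22%. The largest in size was an Itpr1 intron (chr6:108456796-108456853) at recovery 3, with 25.3 to 55.2% (36.8% ± 9.46, n = 9) against 40.6 to 73.8% in controls (54.7% ± 9.24, n = 9). That is a difference of -17.9 points with overlapping groups (adjusted p 0.502).

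**Figure D3:**
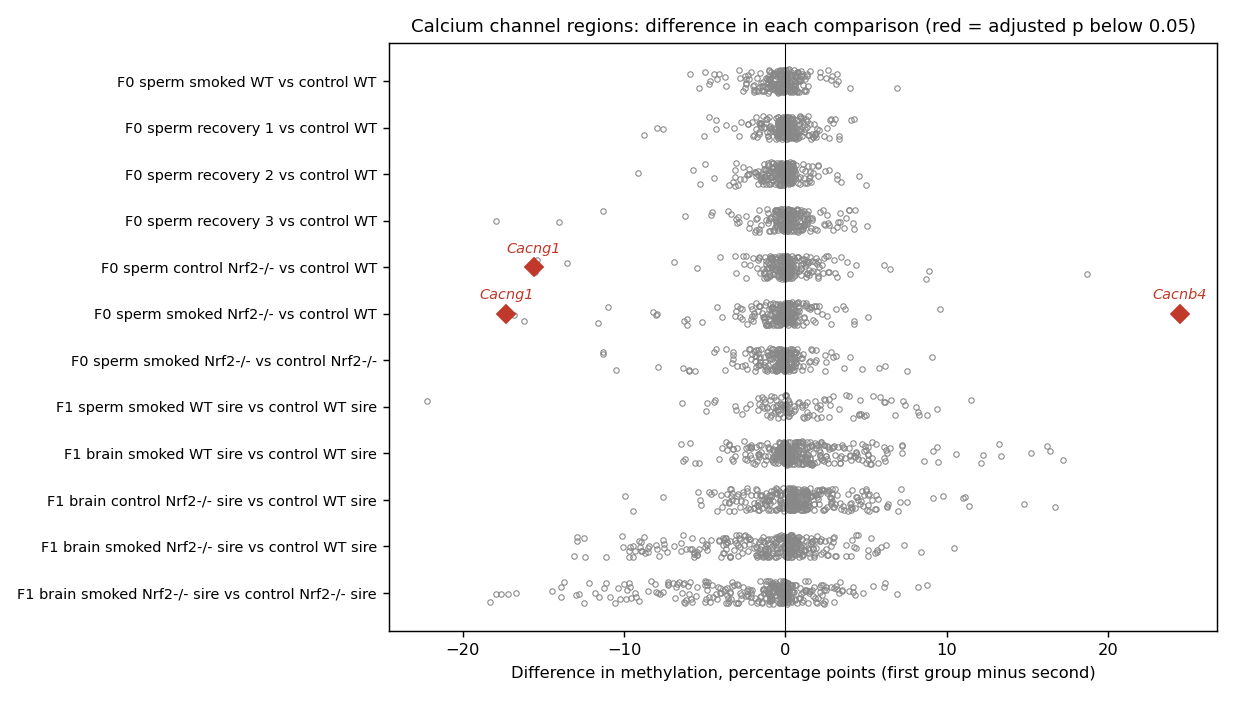
Difference in methylation, in percentage points, of each calcium channel region in 12 comparisons; grey circles are regions that did not pass and red diamonds those with an adjusted p below 0.05. Red marks appear only for Cacng1 and Cacnb4 in the comparisons of Nrf2-/- with WT sperm.

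Against control WT sperm, Cacng1 was lower in both Nrf2-/- groups, Cacnb4 passed as higher in smoked Nrf2-/- males alone and Cacna1b in control Nrf2-/- males alone. In control Nrf2-/- against control WT sperm 2 of 57 member compartments passed, where 0.296% of all compartments did, and 1 of 223 regions, where 0.374% of all did. In smoked Nrf2-/- against control WT sperm 1 compartment (0.245% of all) and 2 regions (0.317% of all) passed. At an unadjusted p below 0.05 there were 5 member compartments and 20 member regions in each of the 2 comparisons, which share the control WT males. Over all features, 7.40% and 6.73% of compartments and 7.81% and 7.89% of regions had such a p. No member compartment or region passed between smoked and control Nrf2-/- males (0% and 0.00637% of all passed; 4 member compartments and 18 member regions had an unadjusted p below 0.05, with 5.57% and 5.75% of all).

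Cacng1 read lower in an intron. Its region of 4 cytosines, shown above, lay between 94.0 and 100% in the 10 control WT libraries (95.8% ± 1.81). In the 10 control Nrf2-/- libraries it was 66.0, 70.2, 70.9, 71.0, 72.3, 81.5, 86.1, 93.0, 94.8 and 96.7% (80.3% ± 11.6). In the 9 smoked Nrf2-/- libraries it was 68.0, 68.8, 70.7, 71.4, 80.3, 83.3, 84.7, 85.3 and 94.4% (78.5% ± 9.22). The Nrf2-/- libraries were spread widely. The lowest of all WT libraries was at 90.4%, and 15 of the 19 Nrf2-/- libraries lay below it. The difference was -15.6 points in control Nrf2-/- (adjusted p 1.19e-04) and -17.3 points in smoked Nrf2-/- males (adjusted p 2.41e-05). Smoked and recovery WT males stayed at group means of 94.6 to 96.0%. The Cacng1 gene body, which contains this region, went the same way (85.0% ± 7.57 and 83.2% ± 7.95 against 95.3% ± 2.31; adjusted p 0.00417 and 4.27e-04).

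Within the Cacng1 region the difference sat on 1 CpG, the second in the sequence above, at position 107704555 of chromosome 11. In control Nrf2-/- sperm this cytosine read 0, 0, 0, 0, 1.1, 47.9, 55.8, 78.1, 92.8 and 94.8%, and in smoked Nrf2-/- sperm 0, 0, 0, 1.75, 37.6, 54.4, 57.5, 63 and 92.5%. In control WT sperm it read 89.9 to 100% (94.5% ± 3.14, n = 10) and in the 4 other WT groups it averaged 93.9 to 95.9%. The Nrf2-/- libraries were thus of several kinds, near 0, intermediate or near the WT level, and the lowest WT library was at 88.0%. A lower percent at 1 CpG and a base change there cannot be told apart in these data. The neighbouring CpG, 8 bp on, averaged 95.3% and 96.0% in the Nrf2-/- groups and 96.5% in control WT sperm.

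The same Cacng1 cytosine, whose choice rested on F0 sperm, was then read in brain of the sons. The tests were chosen with earlier results of these data known. Litters are not stated, so the permutation tests below treat each son as independent. Sons of control WT sires had 36.1, 37.7, 43.4, 43.7, 52.5, 52.5, 54 and 67.8% (48.5% ± 10.4). Sons of control Nrf2-/- sires had 11.3, 11.3, 11.4, 11.6, 12.7, 22.8, 38.4 and 40.8% (20.0% ± 12.7) and sons of smoked Nrf2-/- sires 9.28, 12.4, 15.8, 16, 16.8, 17.5, 19.8 and 46.6% (19.3% ± 11.5). Most sons of Nrf2-/- sires were below every son of a WT sire, and 3 of the 16 were within the WT range. The differences were -28.4 and -29.2 points (2-sided exact permutation test, p 9.32e-04 and 7.77e-04, both 0.00186 after adjustment over 4 comparisons). Which library belongs to the sample with the differing strain label is not known. Leaving out each of the 8 libraries of sons of control WT sires in turn gave differences of -25.7 to -30.2 points for control and -26.4 to -31.0 points for smoked Nrf2-/- sires, with exact permutation p up to 0.00186 and 0.00155. Sons of smoked WT sires (43.9% ± 7.06, n = 8) differed by -4.52 points (exact permutation p 0.334), and sons of smoked and control Nrf2-/- sires by -0.75 points (exact permutation p 0.938). Over the whole region of 4 cytosines the brain difference for control Nrf2-/- sires was -9.44 points and did not pass (limma, adjusted p 0.510). In F1 sperm, from sons of WT sires alone, the cytosine averaged 89.2 and 91.6%.

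**Figure D4:**
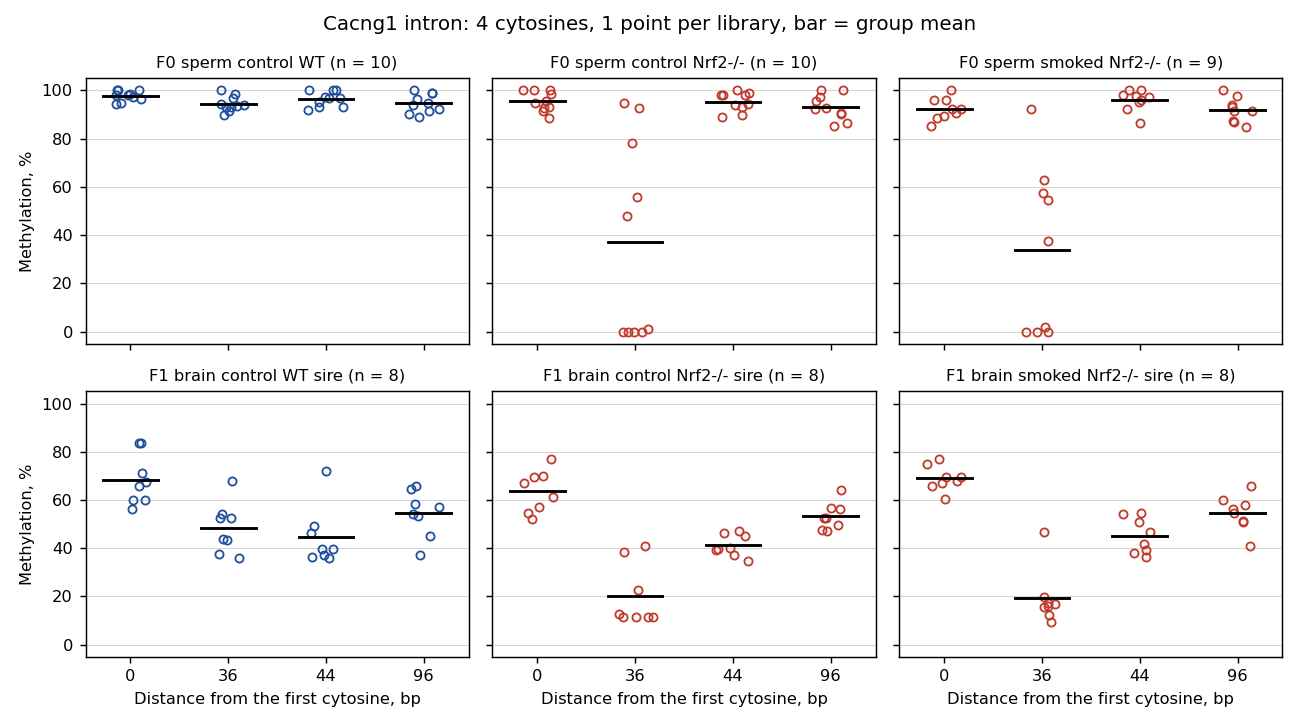
Methylation in percent of the 4 cytosines of the Cacng1 intron region by distance from the first one (bp), 1 circle per library with the group mean as a bar, in F0 sperm (top) and F1 brain (bottom) of control WT, control Nrf2-/- and smoked Nrf2-/- males or sires. At 36 bp the Nrf2-/- sperm libraries spread from 0 to 94.8% while the other 3 cytosines stay high.

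In Cacnb4, the beta subunit gene whose loss causes the lethargic mouse phenotype of ataxia and seizures, an intron region of 10 measured cytosines was higher in Nrf2-/- sperm. Control WT libraries had 28.6, 40.5, 50.1, 50.7, 50.7, 52.2, 52.3, 54.7, 73.8 and 74.7% (52.8% ± 13.6). Smoked Nrf2-/- libraries had 64.5, 71.6, 73.6, 74.3, 75.4, 81.7, 86.4 and 90.7% (77.3% ± 8.49, n = 8), a difference of +24.4 points (adjusted p 0.00684). Control Nrf2-/- libraries had 41.8, 60.7, 66.3, 71.6, 76.2, 77.6, 79.8, 84.5 and 85.0% (71.5% ± 13.7, n = 9), +18.7 points, which did not pass (adjusted p 0.0744). The groups overlapped, since 2 control WT libraries lay near 74%. Smoked and recovery WT males averaged 46.9 to 53.9%. In brain, the 4 sire groups averaged 39.6 to 48.5% and in F1 sperm 76.7% ± 18.6 (n = 4) and 54.5% ± 20.8 (n = 5) in sons of control and smoked WT sires, with overlapping ranges.

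Cacna1b, which encodes the N-type channel, had a higher gene body in control Nrf2-/- sperm, with 27.6 to 40.0% (32.5% ± 3.83, n = 10) against 20.2 to 28.97% (25.7% ± 2.61, n = 10), a difference of +6.85 points (adjusted p 0.0336). The ranges touched between 27.6 and 28.97%. Smoked Nrf2-/- males were at 26.2% ± 4.08 (n = 8), a difference of -6.30 points from control Nrf2-/- males that did not pass (limma, unadjusted p 4.51e-04, adjusted p 0.630). Smoked WT males were at 25.2% ± 3.84 (n = 9). The recovery groups, also WT, had means between those of control WT and control Nrf2-/- males, at 29.1% ± 3.32 (n = 9), 28.8% ± 4.28 (n = 9) and 28.9% ± 3.21 (n = 10), and reached up to 35.8, 34.4 and 35.99%, within the range of control Nrf2-/- males. The region behind it is a coding exon (chr2:24679120-24679444), at 15.6% ± 4.73 (n = 9) in control Nrf2-/-, 9.15% ± 3.12 (n = 10) in control WT and 9.63% ± 3.72 (n = 8) in smoked Nrf2-/- sperm. In brain, the gene body was at 31.5% ± 2.67 in sons of control Nrf2-/- sires and 27.7% ± 2.88 in sons of control WT sires (n = 8 each) and did not pass.

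These calls depended on how the spread was estimated. When only the 2 groups of a comparison were fitted, in place of all 7 sperm groups, the Cacng1 body and region in control Nrf2-/- sperm (adjusted p 0.141 and 0.0987), Cacna1b (0.0753), the Cacng1 body in smoked Nrf2-/- (0.0714) and Cacnb4 (0.113) no longer passed, and the Cacng1 region in smoked Nrf2-/- sperm alone still did. Cacna1b was also lost when any of 7 single libraries was left out (adjusted p up to 0.100). Over all 29 settings run for it, its adjusted p (limma) ran from 0.0196 to 0.114.

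**Figure D5:**
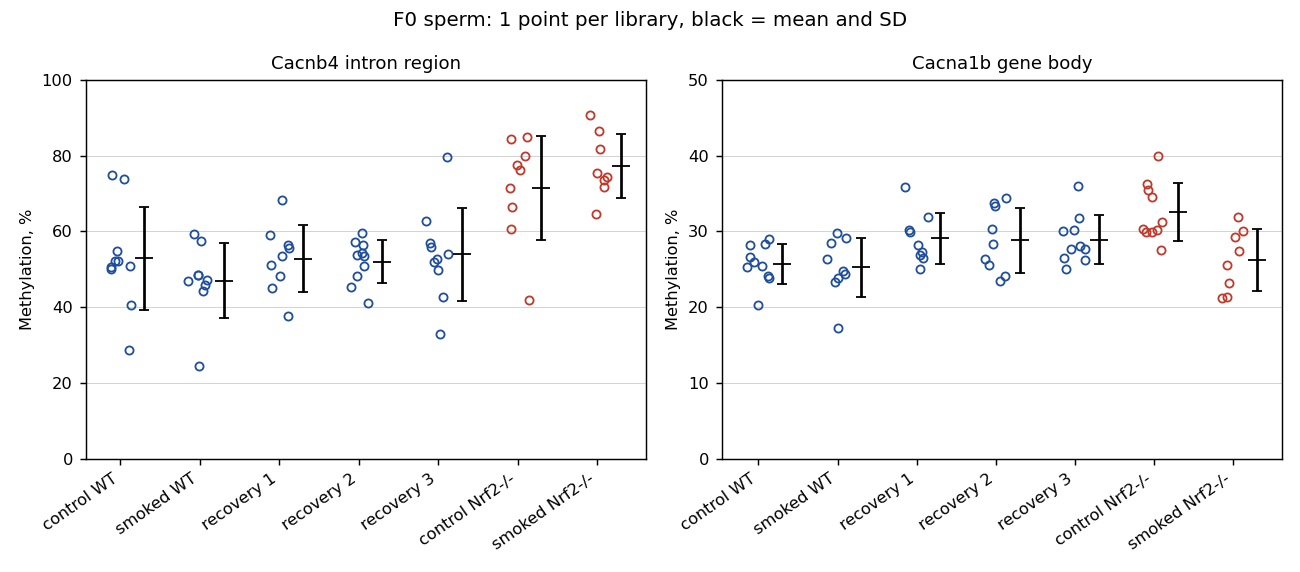
Methylation in percent in F0 sperm of the Cacnb4 intron region and the Cacna1b gene body, 1 point per library in each of the 7 groups, with mean and SD in black. In Cacnb4 both Nrf2-/- groups lie higher (71.5 and 77.3% against 46.9 to 53.9% in WT groups), and in Cacna1b control Nrf2-/- males have the highest mean (32.5%), with the recovery groups between 28.8 and 29.1% and overlapping them.

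Both Cacnb4 and Cacna1b lie on chromosome 2, as does Nfe2l2, the gene targeted in the Nrf2-/- line, at distances of 23165482 and 50996069 bp. Cytosines that differed from control WT by more than 20 points in the same direction in both Nrf2-/- groups made 10 of 3297 (0.303%) in the channel genes and 1742 of 1023708 (0.17%) overall. Of the 10, 6 lay in the Cacnb4 region and 1 each in Cacna1e, Itpr1, Cacna1a and Cacng1. These cytosines were chosen for differing from control WT, and every comparison shares that group. The Cacna1e cytosine was at 63.7% in control WT, 53.4% in smoked WT and 80.7%, 64.0% and 84.3% in recovery 1, 2 and 3. The Itpr1 cytosine was at 55.6% in control WT, 49.0% in smoked WT and 36.6%, 51.9% and 34.4% in recovery 1, 2 and 3. The Cacna1a cytosine was at 65.4%, 54.1%, 48.6%, 61.8% and 49.7% in these groups. The means of WT groups thus also lay apart at these 3 cytosines, which was not tested. The 6 Cacnb4 cytosines averaged 45.8 to 49.7% in control WT, 40.6 to 48.9% in smoked WT, 48.9 to 55.8% in recovery 1, 43.7 to 52.9% in recovery 2 and 50.6 to 54.5% in recovery 3, below every Nrf2-/- mean (66.1 to 79.9%).

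In sperm of sons, smoke exposure of the WT sire left no member past the threshold (0 of 50 compartments and 0 of 114 regions, limma; 0% of all in both cases). At an unadjusted p below 0.05 there were 2 member compartments and 4 member regions (5.95% and 5.58% of all). The smallest p of a compartment was in the Cacna2d1 gene body, the target of gabapentin, with 37.2 to 43.8% against 32.4 to 40.4% (40.9% ± 2.63 against 36.4% ± 2.98, n = 6 each; adjusted p 0.793). Of the regions it was a Cacng5 intron (chr11:107896763-107896924), with 84.5 to 95.2% (n = 7) against 69.8 to 85.0% (n = 6), a difference of +11.5 points with ranges that touched (adjusted p 0.849). The F1 sperm library with the fewest positions, a control, lay 6.04 points below its group's median over 15 gene bodies, and its part in these differences was not tested.

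In brain of sons, no member compartment (0 of 58) or region (0 of 320) passed in any of the 4 comparisons of sires (limma). For smoked against control WT sires 0% of all compartments and 0% of all regions passed, for control Nrf2-/- against control WT sires 0.00677% and 0.0136%, for smoked Nrf2-/- against control WT sires 0.0113% and 0.021%, and for smoked against control Nrf2-/- sires 0% and 0%. At an unadjusted p below 0.05 there were 2, 11, 8 and 10 member compartments and 15, 27, 35 and 40 member regions in these 4 comparisons. The shares of all features with such a p were 4.06%, 12.4%, 14.2% and 10.5% of compartments and 4.06%, 9.36%, 12.01% and 9.67% of regions. The first 3 share the sons of control WT sires.

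The brain differences of the member gene bodies were set beside those of all gene bodies. Over the 30 gene bodies the median difference was +1.15 points for smoked WT sires, +0.71 for control Nrf2-/- sires, -0.80 for smoked Nrf2-/- sires and -1.61 for smoked against control Nrf2-/- sires, beside +0.59, +0.35, -0.81 and -1.09 over all 19469 gene bodies. In the last comparison the 30 bodies ran from -5.34 to +0.05. The lowest p was that of Ryr1, with 46.7 to 50.8% in sons of smoked Nrf2-/- sires (49.0% ± 1.48) against 50.6 to 53.4% in sons of control Nrf2-/- sires (51.7% ± 0.99, n = 8 each; adjusted p 0.269). Its leading region, a coding exon (chr7:29093921-29094158), had 73.8 to 85.4% (79.3% ± 3.88) against 82.2 to 89.4% (86.3% ± 2.37, adjusted p 0.242) and 85.8% ± 4.37 in sons of control WT sires (adjusted p 0.277).

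The other leading brain values were small. The Cacng4 body was at 60.8% ± 2.00 in sons of smoked WT sires against 58.3% ± 1.43 (n = 8 each; adjusted p 1.0), and its coding region (chr11:107734799-107735049) at 96.0% ± 1.46 against 91.1% ± 3.06 (n = 7 each; adjusted p 1.0). For control Nrf2-/- sires it was the Cacng8 body, at 6.93% ± 1.10 against 5.66% ± 0.64 (n = 8 each; adjusted p 0.348), and a Cacnb4 promoter region, at 1.77% ± 0.77 against 0.75% ± 0.37 (n = 8 each; adjusted p 0.510). For smoked Nrf2-/- sires it was the stretch before the start of Cacng7, at 2.91% ± 1.99 against 1.02% ± 0.76 (n = 8 each; adjusted p 0.305).

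Whether smoke acted differently by genotype was tested as a difference of smoke changes. No member passed in F0 sperm (0 of 57 compartments, 0 of 223 regions) or in brain (0 of 58, 0 of 320), and 0% of all features did (limma; at an unadjusted p below 0.05 there were 3 compartments and 12 regions of the members in sperm, with 3.67% and 4.21% of all, and 14 and 37 in brain, with 10.96% and 9.41% of all). In sperm the smallest p was that of the Cacna1b body (-5.84 points, adjusted p 1.0). In brain it was that of the Cacna1i body, at 57.6% (control) and 59.2% (smoked) in sons of WT sires and at 58.6% (control) and 54.1% (smoked) in sons of Nrf2-/- sires (-6.03 points, adjusted p 0.308). Of the brain regions it was a coding exon of Cacna1a (chr8:84566083-84566227), at 52.3, 61.7, 57.5 and 39.2% in the same order (-27.7 points, adjusted p 0.277).

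Regions were also called by size alone, after the study's methods but without their read minimum per CpG, which could not be applied here, when at least 33.3% of a region's cytosines and its mean moved past 5 points. In F0 sperm this gave 4 of 223 member regions after smoke (2.61% of all regions met the rule), 4, 3 and 6 at recovery 1, 2 and 3 (3.4%, 2.53% and 4.1%), 10 in control Nrf2-/- (5.1%), 13 in smoked Nrf2-/- (4.93%) and 9 between the Nrf2-/- groups (3.73%). The member shares were 1.35 to 2.69% for smoke and recovery, each below its background, and 4.04 to 5.83% in the comparisons with Nrf2-/- males, above it in 2 of 3. In F1 sperm it gave 15 of 114 (13.2%, with 13.1% of all). In brain it gave 38 of 320 for smoked WT sires (11.9%, with 8.33% of all), 30 for control Nrf2-/- sires (9.38%, with 7.53%), 58 for smoked Nrf2-/- sires (18.1%, with 13.6%) and 69 between the Nrf2-/- sire groups (21.6%, with 16% of all). Of the 38 regions 32 were higher, and of the 69 regions 62 were lower. The same lean was present over all regions, where 5531 of 6743 were higher and 12187 of 12947 lower. For the difference of smoke changes between genotypes the rule gave 16 of 223 regions in sperm (7.17%, with 6.3% of all) and 95 of 320 in brain (29.7%, with 22.6% of all), and for brain against sperm of sons 61 of 104 (58.7%, with 53.5% of all). This rule uses no replicate error.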

How the data were processed

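Each deposited table held, per the file headers, 1 percent of DNA methylation per CpG and library, made by the authors from reads aligned to mm10 with Bismark (version not given in the sources used here). Read numbers were not in the tables, and how many reads stood behind a percent is unknown. A percent cannot tell an unmethylated cytosine from a base change at it. Columns were assigned to groups by the table that held them, since their names matched no single sample.

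A cytosine was used when at least 4 libraries of every group in a dataset had a value. Compartments and regions needed 3 cytosines, regions were over 50 bp long, and a group needed 3 values. A library's value was its mean over cytosines, adjusted for which cytosines it covered. Tests used limma 3.58.1 with a trended variance in R 4.3.3, fitted across all features and all groups of a dataset, with Benjamini-Hochberg adjustment over all features. A library without a value for a feature was left out of that fit, so n varies. Libraries are numbered as replicates in the labels, which do not say how sons relate by litter, so p-values measure the spread between libraries. Simulated data were used to test the code.

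Gene positions are from GENCODE vM21 and sequences from GRCm38. All member positions lay on a CpG of that assembly (12772, 7652 and 8966 in F0 sperm, F1 sperm and brain). The genes, the lists and the tests were chosen with earlier results of these data known. Genes named are those that passed or, where none passed, the compartment and region with the smallest p, the 10 largest brain to sperm differences of each kind, the highest and lowest of each family, and promoters between 10 and 90%. The Cacng1 cytosine, the promoter regions of Cacnb3, Cacng6 and Cacna1i and the small promoter differences between tissues were named after their values were seen. In bulk tissue a shift in cell types and a change within cells cannot be told apart. Alternatives were another promoter width or start, joining distance, cytosine or library minimum, plain mean, log2 ratio scale, untrended variance, array weights, groups fitted alone and each library left out.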

Additional observations from a re-analysis of the deposited data

Results flagged for a closer look

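Single libraries stood apart from the rest of their group (Dixon's ratio) in 11 of the 96 groups of 4 to 10 values tested for the named features. Chance alone gives about 1 in 20.

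In F0 sperm, the Cacnb2 exon region had 1 smoked WT library at 8.67%, with the next at 1.16%. The Cacnb4 intron region on chromosome 2 from 52631817 had 1 recovery 1 library at 85.5%, with the next at 95.1%. The Cacna1h promoter region had 1 control WT library at 7.52%, with the next at 1.22%. The Cacng1 intron region had 1 control WT library at 100%, with the next at 97.2%.

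In brain of sons of control WT sires, 1 library stood apart at 76.3% in the Ryr1 coding region, at 41.9% in the Cacnb1 gene body, at 63.8% in the Cacna1b gene body, at 44.3% in the Cacng4 gene body and at 23.6% in the Ryr2 promoter. In F1 sperm of sons of control WT sires, 1 library stood apart at 78.2% in the Cacna1h gene body, with the next at 91.1%, and 1 at 100% in the Itpr2 intron region (n = 4), with the next at 95.6%.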

How the results depend on the processing

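No result reversed under any alternative run. The counts of 0 for smoke, recovery, F1 sperm, brain and genotype-by-smoke comparisons stayed at 0 under every alternative run. F1 sperm holds 2 groups alone, so fitting the groups alone is the same fit there and was not run again. In control Nrf2-/- against WT sperm the 2 compartments became 0 with the groups fitted alone and 1 with array weights, with a plain mean and with at least 6 libraries per group, and ranged from 1 to 2 when single libraries were left out. The 1 region became 0 with at least 5 cytosines or the groups alone and 2 with array weights, and ranged from 1 to 3 with single libraries left out. In smoked Nrf2-/- sperm the 1 compartment became 0 with the groups alone, and the 2 regions became 1 with at least 5 cytosines and 1 with the groups alone. In brain against sperm the 29 compartments became 18 with at least 6 libraries, and the 63 regions became 30 with at least 5 cytosines and 18 with at least 6 libraries. The 431 regions past 5 points over all comparisons became 149 at 10 points and 704 at a joining distance of 300 bp. These minimums leave fewer features to test. The cause of the other shifts was not tested. No paired analysis was possible because the columns of the tables carry facility numbers, which no label ties to the replicate numbers. That limit concerns pairing by replicate number alone. The 5 WT F0 sperm groups alternate in facility number, from 21, 22, 23, 24 and 25 up to 66, 67, 68, 69 and 70. A fit blocked on that order could have been made but was not run. The counts of 0 for smoke and recovery in F0 sperm thus come from fits without such a block, and its effect on them was not tested. Unknown depth limits every single-cytosine value.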
